A study of Homo sapiens with 12 samples.

Results

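The regions bound by STAT5B in prednisolone-treated SUPT-1 cells were compared between cells expressing wild-type STAT5B (WT line) and cells expressing the N642H mutant (N642H line). The members were all STAT5B regions listed with prednisolone on chromosomes 1 to 22 and X, which were 766 regions in the WT line and 444 in the N642H line, 1210 of the 11904 regions in the 8 lists of the series. A region was shared when it overlapped a region of the other line by at least 1 bp, and was otherwise called WT-only or N642H-only. SUPT-1 is a cell line established from human T-cell lymphoblastic disease and is widely used as a model of T-cell acute leukaemia. In both lines the STAT5B form was expressed from a doxycycline-inducible construct selected with puromycin, so the WT line is an overexpression line and not the parental cell. Prednisolone, a synthetic glucocorticoid, was given at 250 µg per ml for 16 h. The untreated groups, which were also doxycycline-induced, are used below only as other readouts, as are the regions of the glucocorticoid receptor NR3C1 in both lines with prednisolone.

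STAT5B is a transcription factor that cytokine receptors activate through JAK kinases, and in T-lineage cells it acts below the interleukin-7 receptor. Phosphorylated STAT5B forms dimers that bind the palindrome TTCNNNGAA, and its textbook targets include the feedback inhibitors CISH and the SOCS genes, the PIM kinases and the survival gene BCL2L1, whose main product is BCL-XL. N642H is an activating mutation of the SH2 domain found in T-cell leukaemias and lymphomas. NR3C1 is a nuclear receptor that enters the nucleus when it binds a glucocorticoid, and FKBP5, TSC22D3, PER1, KLF9 and DUSP1 are among its textbook targets. STAT5B and NR3C1 are known to bind together at some genes.

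There was 1 ChIP library for each line, antibody and treatment, so no difference below has a replicate check and no test between the lines was possible. Fold (ChIP pileup over local background) and −log10 q are the authors' own values for each region, and they rank regions within 1 list. Values of both lists are set side by side and do not measure a change. The depth recovered from the lists was 8.01 ChIP tags per kb in the WT library and 4.13 in the N642H library. The median region was supported by 15 and 11 fragments at its summit. The depth rests on the lowest local background shared by 5 or more regions, taken as that of the whole library. The lowest WT region stood at 0.575 of that level, so the WT depth is approximate. The N642H list also held 67 high-background regions, defined by a local background 10 times or more above that of the whole library, against 6 in the WT list. The shares they touch are given with and without them, and where a value includes or leaves them out alone, that is said. Shares carry exact Clopper-Pearson 95% intervals, which cover counting over the listed regions only. Whether a line was 1 clone or a pool was not given in the sources used here, and the lists measure neither the amount nor the form of STAT5B in the cells.

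Promoter sequences give examples of gene starts from each class, chosen among those with a summit from 250 bases before to 50 bases after a start. Printed are the 250 bases upstream of the start, 5′ to 3′ on the strand of the gene, from the RefSeq promoter table of GRCh38.p14. Capitals mark the STAT palindrome TTCNNNGAA, and the sequence CCGGAAG or its complement CTTCCGG, the core of ETS-family sites. COPS7B and GTF3C3 were shared, IPO4 was WT-only, and TADA1 and CISH were N642H-only. COPS7B (chr2:231786195-231786444, plus strand) encodes a subunit of the COP9 signalosome, GTF3C3 (chr2:196799684-196799933, minus strand) a subunit of transcription factor IIIC, IPO4 (chr14:24188817-24189066, minus strand) a nuclear import receptor and TADA1 (chr1:166876265-166876514, minus strand) a subunit of the SAGA coactivator. CISH (chr3:50611775-50612024, minus strand) encodes the feedback inhibitor of cytokine signalling, and it is printed as a textbook STAT5 target, a choice made after its values were seen.
COPS7B: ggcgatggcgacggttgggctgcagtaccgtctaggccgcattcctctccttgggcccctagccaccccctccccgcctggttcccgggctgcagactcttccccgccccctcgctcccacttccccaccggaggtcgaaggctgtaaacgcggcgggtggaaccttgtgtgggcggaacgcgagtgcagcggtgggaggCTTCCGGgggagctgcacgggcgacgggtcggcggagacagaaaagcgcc
GTF3C3: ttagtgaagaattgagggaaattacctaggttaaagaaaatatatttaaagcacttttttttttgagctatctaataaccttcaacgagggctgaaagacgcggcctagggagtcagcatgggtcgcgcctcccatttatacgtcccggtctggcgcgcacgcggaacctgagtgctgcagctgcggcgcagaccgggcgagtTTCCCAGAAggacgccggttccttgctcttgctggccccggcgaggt
IPO4: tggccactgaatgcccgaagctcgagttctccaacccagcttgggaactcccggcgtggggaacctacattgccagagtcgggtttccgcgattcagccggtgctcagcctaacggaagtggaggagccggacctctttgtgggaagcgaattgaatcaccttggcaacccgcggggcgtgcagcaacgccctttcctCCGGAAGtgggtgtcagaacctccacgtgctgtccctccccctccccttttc
TADA1: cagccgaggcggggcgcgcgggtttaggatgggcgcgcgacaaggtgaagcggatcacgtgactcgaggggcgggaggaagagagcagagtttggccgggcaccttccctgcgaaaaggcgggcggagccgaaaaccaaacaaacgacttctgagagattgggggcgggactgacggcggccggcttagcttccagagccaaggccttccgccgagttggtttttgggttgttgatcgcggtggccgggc
CISH: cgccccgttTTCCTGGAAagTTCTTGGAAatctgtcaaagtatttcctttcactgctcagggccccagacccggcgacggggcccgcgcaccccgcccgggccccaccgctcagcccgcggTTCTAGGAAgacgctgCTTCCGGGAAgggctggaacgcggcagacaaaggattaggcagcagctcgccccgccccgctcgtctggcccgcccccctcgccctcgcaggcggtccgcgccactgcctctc
CISH held 4 STAT palindromes, the first base of each lying 241, 230, 129 and 112 bases upstream of the start, and the N642H summit lay 236 bases upstream. The most distal palindrome thus lay under the summit. The last of the 4 overlapped the single ETS-type match of that promoter. Only 5 of the 22131 promoter windows in the RefSeq table, from 4 genes, held 4 or more palindromes. GTF3C3 held 1 palindrome, 47 bases upstream, with the N642H summit 50 and the WT summit 88 bases upstream. COPS7B, IPO4 and TADA1 held none, and COPS7B and IPO4 each held 1 ETS-type match.

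Over 300-base promoter windows holding a summit, the palindrome was about as frequent as over all promoters, whose share lay inside each class's interval. It was found in 6.0% of 100 windows of shared WT regions, 7.24% of 290 WT-only windows, 7.29% of 96 windows of shared N642H regions and 5.88% of 68 N642H-only windows, against 6.79% of all 22131 windows. The receptor half-sites TGTTCT or AGAACA, searched on both strands, were in 14 of the 100 windows of shared WT regions. In the others, in the same order, they were in 7.59%, 14.6% and 2.94%, against 11.7% of all. The full receptor palindrome was in none of all 22131 windows, so its absence from every class says nothing about the classes. CCGGAAG or CTTCCGG, a pair chosen after the sequences were seen, was in 34.0%, 34.5%, 34.4% and 33.8%, against 12.8% of all windows. The shared, WT-only and N642H-only promoters thus carried this ETS-type core at nearly the same rate. Regions outside promoters were not searched.

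Of the WT regions, 182 of 766 were shared (23.8%, 95% interval 20.8 to 26.9), and of the N642H regions, 183 of 444 (41.2%, 36.6 to 45.95). Each shared WT region was paired with the overlapping N642H region of the largest −log10 q, which gave 182 pairs. Other N642H regions overlapping the same WT region were not counted as pairs with it. Joined where they overlapped, the shared regions of both lists formed 179 loci. The binding positions within a pair were close: summits lay a median of 40 bp apart, 154 pairs were within 100 bp, and the largest distance was 330 bp. Without high-background regions the shared part of the N642H list was 48.3% (182 of 377). When the WT list was shortened to its 444 strongest regions, 30.9% of it and 31.3% of the N642H list were shared, high-background regions included.

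The stronger WT regions were shared more often. Each list was cut by −log10 q into 4 groups of nearly equal size. From the strongest to the weakest group, the shared part of the WT list was 44.8%, 23.04%, 14.6% and 12.6%. In the N642H list the groups gave 37.8%, 49.5%, 45.0% and 32.4%, and without high-background regions 63.2%, 52.1%, 43.6% and 34.0%. The order by strength was thus seen in the N642H list only once the high-background regions were left out.

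**Figure D1:**
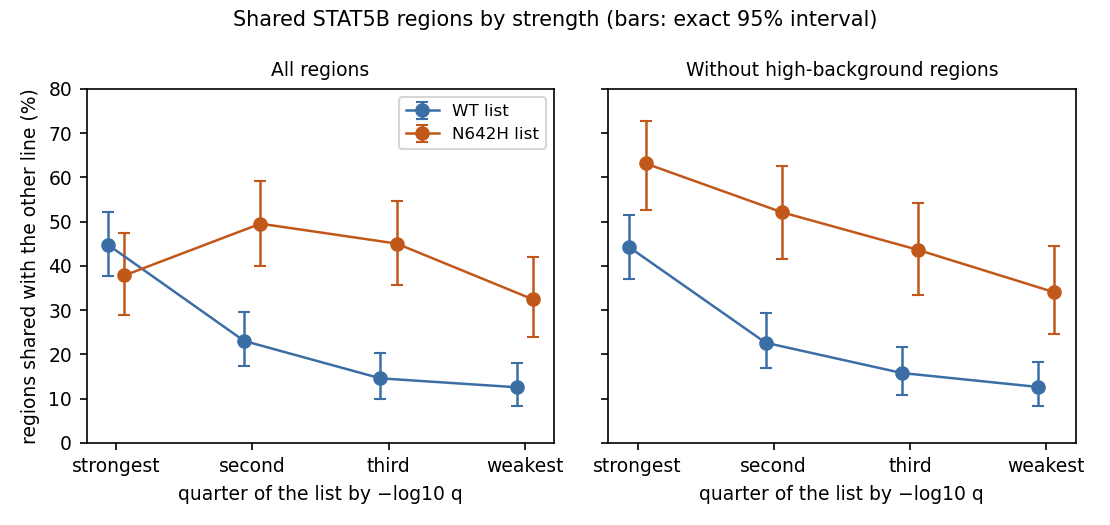
Share of STAT5B regions with prednisolone that overlapped a region of the other line, in percent, for 4 groups of each list from the strongest to the weakest −log10 q, with exact 95% intervals. The WT list goes from 44.8% to 12.6%, and the N642H list goes from 63.2% to 34.0% once high-background regions are left out (right panel).

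Shared regions had a median fold of 7.76 in the WT list, against 6.93 for WT-only regions, and a median −log10 q of 8.01 against 5.44. They were also wider, with a median of 163.5 bp against 114 bp. In the N642H list the median fold was 7.35 for shared and 6.38 for N642H-only regions, or 6.81 for the latter without high-background regions. Their median −log10 q was 6.27 for shared and 5.86 for N642H-only regions, and 5.18 for the latter without high-background regions. WT-only and N642H-only regions were therefore the weaker classes of their lists, but the classes overlapped widely. Over the 182 pairs, which share no library but do share local sequence, Spearman's rho between the lines was 0.15 for fold and 0.25 for −log10 q, as a description. The pairs hold only regions listed in both lines, and shared regions had a median of 18.5 (WT) and 11 (N642H) fragments at the summit. The part of this selection and of low counts in rho was not tested. The fold was higher in the WT list at 103 pairs. Of the 50 strongest regions of each list, 6 pairs were among both, and 11 pairs without high-background regions.

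**Figure D2:**
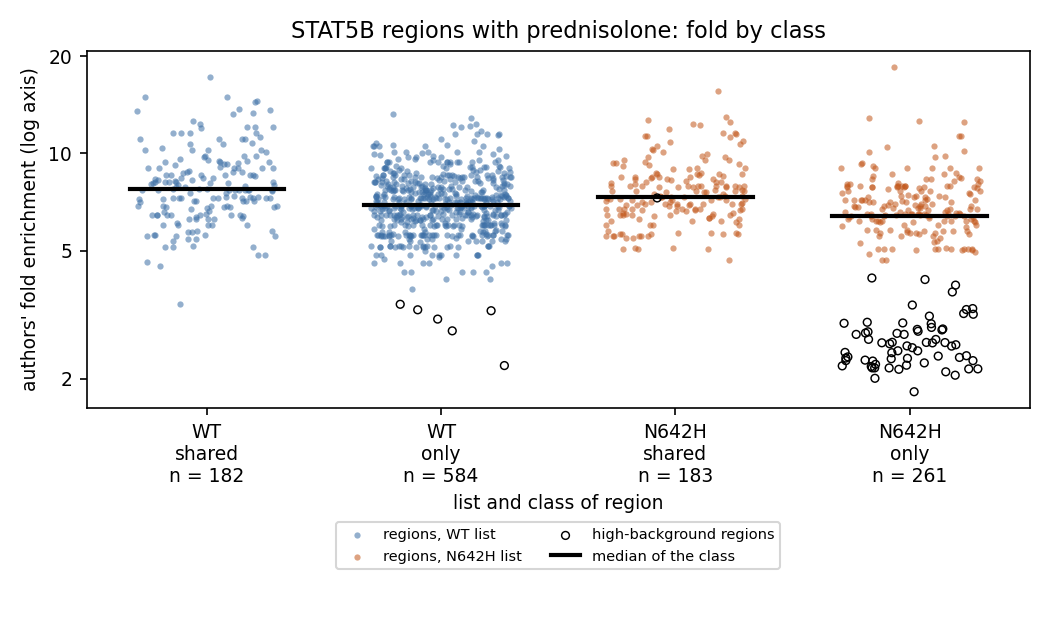
The authors' fold enrichment of each STAT5B region with prednisolone (log axis) for shared and line-specific regions of both lists, 1 point a region, with the class median as a bar. Open circles are high-background regions, and the 66 of the N642H-only class have folds of 4.11 or less.

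**Figure D3:**
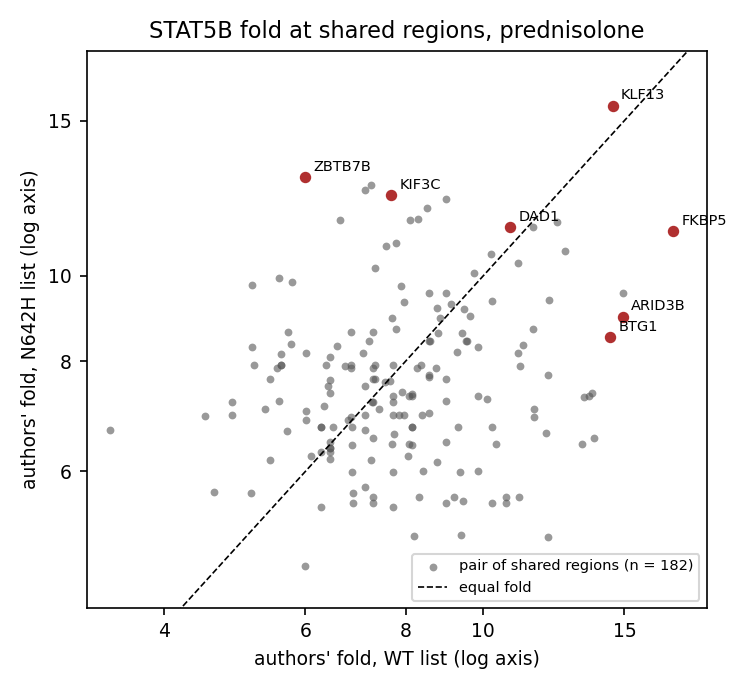
The authors' fold in the WT list (x, log axis) against that in the N642H list (y, log axis) at 182 overlapping pairs of STAT5B regions with prednisolone, with the line of equal fold. FKBP5, ARID3B and BTG1 lie on the WT side of the line, ZBTB7B and KIF3C on the N642H side, and KLF13 is high in both.

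The strongest shared regions included loci of textbook glucocorticoid targets and of lymphocyte genes. FKBP5 encodes a co-chaperone that limits receptor activity. It held the strongest shared region of the WT list, inside the gene and 373 bp from a transcription start, at chr6:35727851-35728271. Its fold was 17.2 in the WT line and 11.2 in the N642H line with prednisolone. The same position had folds of 9.07 and 5.86 in the untreated WT and N642H STAT5B lists, and of 73.0 and 106 in the NR3C1 lists. It was thus listed in every STAT5B library and in both prednisolone-treated NR3C1 libraries. A second shared region lay beyond FKBP5, 3361 bp from it in the WT list, and its nearest gene was ARMC12. That region had a fold of 9.63 in the WT list and 8.997 in the N642H list.

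KLF13, a Krüppel-like zinc-finger gene, held the strongest shared region of the N642H list inside the gene, at chr15:31365691-31366072 in the WT list. Its fold was 14.5 in the WT line and 15.6 in the N642H line. It was listed at 4.14 in untreated WT STAT5B, was in no untreated N642H STAT5B region, and had NR3C1 folds of 76.9 and 114. A region 109440 bp from BTG1, an antiproliferative gene of lymphoid cells, had folds of 14.4 and 8.52, with NR3C1 folds of 70.8 and 79.1, and was in neither untreated STAT5B list. The region at KIF3C, a kinesin motor gene, had folds of 7.68 and 12.3 with NR3C1 folds of 45.1 and 73.9, and it too was in neither untreated list. KLF13, BTG1 and KIF3C thus had high receptor folds in both lines and a low untreated STAT5B fold or none.

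Other strong shared regions were listed for STAT5B without drug in both lines and had lower receptor folds than those 3. ARID3B, an AT-rich DNA-binding protein gene, had folds of 14.9 and 8.99, untreated STAT5B folds of 12.4 and 33.3, and NR3C1 folds of 4.50 and 18.6. The region beside DAD1, which neighbours the T-cell receptor alpha locus, had folds of 10.8 and 11.4 and untreated folds of 15.2 and 19.5, and its NR3C1 folds were 11.4 and 20.4. ZBTB7B, the regulator of CD4-lineage choice, stood at 5.99 in the WT list and 12.9 in the N642H list. The gene starts of NR1H3 and TOR1AIP1 were also shared, with folds between 8.99 and 12.6 across both lists and untreated STAT5B regions in both lines. The start of HIGD2A, shared at 8.50 and 11.9, had an untreated region in the N642H line only (5.24) and no NR3C1 region.

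Shared regions lay at gene ends more often than N642H-only ones, and the gap to WT-only regions was smaller. Counting summits no more than 1 kb from the start or the end of a coding gene, the share was 66.5% of shared WT regions (59.1 to 73.3) and 56.3% of WT-only regions (52.2 to 60.4), intervals that overlap narrowly. With −log10 q of at least 5 in both lists the WT shares were 60.4% (50.6 to 69.5) and 58.1% (53.0 to 63.1), so the gap was smaller there. In the N642H list the values were 65.6% (58.2 to 72.4) and 33.7% (28.0 to 39.8), and 45.1% (38.0 to 52.4) of N642H-only regions without high-background ones. Where the RefSeq table gave a start, 53.5% of WT-only and 33.3% of N642H-only regions lay within 1 kb of it, the latter 45.0% without high-background regions. Inside genes but away from their ends lay 11.0% of shared WT regions, 22.9% of WT-only regions and 19.9% of N642H-only regions, or 26.7% of the latter without high-background ones. Over 50 kb from any gene lay 6.59% of shared WT regions, 7.19% of WT-only regions and 32.2% of N642H-only regions (26.6 to 38.2). Without high-background regions the last share was 10.3%, and that of WT-only regions 6.91%.

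**Figure D4:**
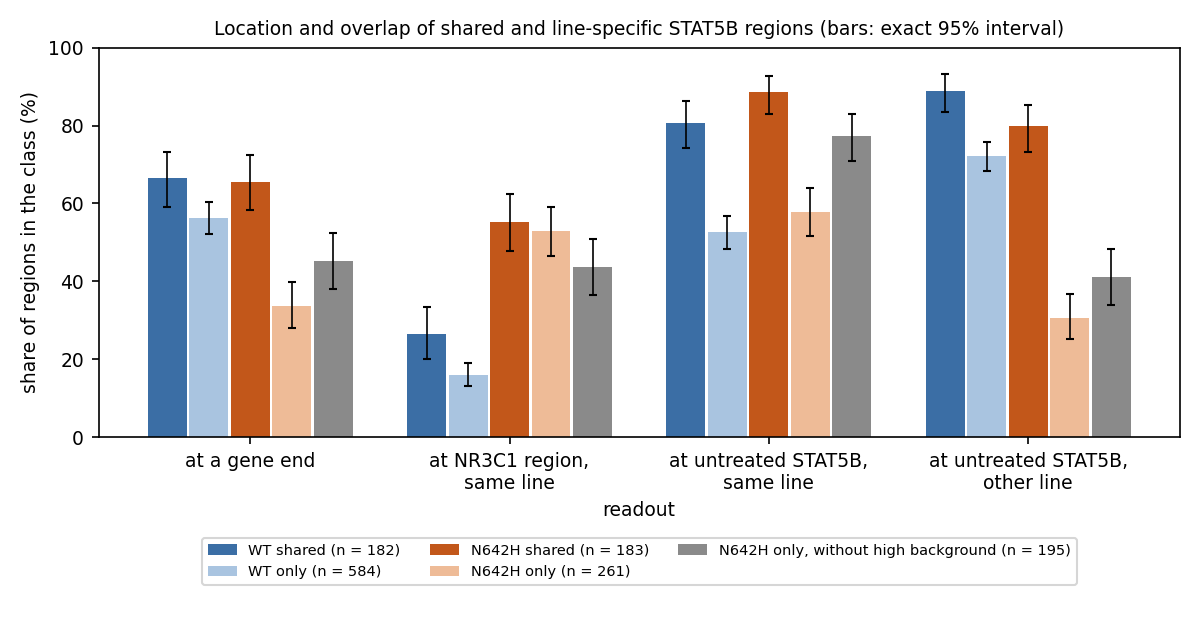
Share of regions in each class (percent, exact 95% intervals) that lay at a gene end, at an NR3C1 region of the same line with prednisolone, or at an untreated STAT5B region of the same or the other line. WT-only regions lay at untreated STAT5B regions of the N642H line in 72.1% of cases, and N642H-only regions at those of the WT line in 30.7%, or 41.0% without high-background regions (grey). The untreated lists differ in length, with 4541 regions in the N642H line and 2267 in the WT line.

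Most WT-only regions were listed in another library of the N642H line. Of the 584, 421 (72.1%, 68.3 to 75.7) overlapped an untreated STAT5B region of the N642H line, more than the 307 (52.6%, 48.4 to 56.7) that overlapped one of their own line. The untreated N642H list was longer, with 4541 regions against 2267. With that list shortened to the length of the WT one, 53.8% of WT-only regions overlapped it. In all, 461 WT-only regions (78.9%) were in some N642H library, and 123 (21.1%) were in none. By the recovered depth the N642H library with prednisolone was the shallower of the pair. The part of depth in these absences was not tested.

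N642H-only regions were less often present in the WT lists used as readouts, which were shorter. Untreated STAT5B held 2267 regions in the WT line against 4541 in the N642H line, and NR3C1 994 against 2888. Beyond the value at equal length given above, the part of list length in this contrast was not tested. Of the 261, 80 (30.7%, 25.1 to 36.6) overlapped an untreated STAT5B region of the WT line and 151 (57.9%, 51.6 to 63.9) one of their own line. Without high-background regions these shares were 41.0% and 77.4% of 195. In no WT library were 166, or 100 of the 195. Of those 195, 39 lay at untreated STAT5B and NR3C1 regions of the N642H line with no WT-line region of any kind, and 35 at untreated STAT5B of the N642H line alone. A further 44 lay at untreated STAT5B of both lines without NR3C1.

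NR3C1 was listed at a larger share of STAT5B regions in the N642H line than in the WT line, in both classes. In the WT line 26.4% of shared regions (20.1 to 33.4) and 15.9% of WT-only regions (13.0 to 19.1) overlapped an NR3C1 region. In the N642H line the shares were 55.2% (47.7 to 62.5) and 52.9% (46.6 to 59.1), the latter 43.6% (36.5 to 50.9) without high-background regions. The NR3C1 lists differ in length, with 994 regions in the WT line and 2888 in the N642H line, and the part of this in the shares was not tested. The labels give 1 input library for each line and treatment, so the STAT5B and NR3C1 lists of a line may rest on the same input.

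Overlap with NR3C1 differed with where a region lay. At gene ends, 4.56% of WT-only and 18.2% of N642H-only regions were at NR3C1 of their own line. Away from gene ends the shares were 31.2% and 64.5%. Shared regions showed the same order, with 14.9% at gene ends and 48.3% away from them in the WT line, and 45.0% and 74.2% in the N642H line. These 4 comparisons leave out high-background regions. In each of the 4 classes the share was higher away from gene ends.

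The high-background regions were nearly all N642H-only. Of 67 in the N642H list, 66 were N642H-only and 1, near GRAPL, was shared. Their median fold was 2.55 with a median of 117 fragments at the summit and a local background 138 times that of the genome. They gathered in few stretches, with 20 in chr16:34572670-34595555, 18 in chr16:46386390-46401608 and 12 in chr1:143192727-143264765. Of the 66, 53 were also at an NR3C1 region of the N642H line with prednisolone, and none was in an untreated STAT5B list or a WT list. They made up 9 of the 10 N642H-only regions with the largest −log10 q. The 6 in the WT list were single regions on 6 chromosomes, 4 of them within 12 kb of the first base.

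Most of the strongest WT-only regions were also STAT5B regions of untreated cells of both lines. SH3TC1, an adaptor protein gene, held a WT-only fold of 13.2 inside the gene, with untreated STAT5B folds of 12.5 in WT and 15.7 in N642H cells and NR3C1 folds of 17.2 and 16.6. IPO4 had a fold of 12.3 at the promoter printed above, with untreated folds of 11.3 and 7.50 and no NR3C1 region. PTCH1, the Hedgehog receptor gene, had 12.1 with untreated folds of 9.24 and 6.85. Of the 10 strongest WT-only regions, 8 were in the untreated STAT5B lists of both lines. Of all 584 WT-only regions, 52.6% were in the untreated list of the WT line and 72.1% in that of the N642H line. No more than 52.6% of the class was thus in both.

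Among WT-only regions in no N642H library, the strongest were 20856 bp from PRAMEF22 (fold 11.4) and at AKR1B1 (12.2). The latter, at the aldose reductase gene, lay 78 bp from the transcription start. FZD1, a Wnt receptor gene, had a fold of 10.5, AP2S1, a clathrin adaptor subunit gene, 9.62, and CCT4, a chaperonin subunit gene, 9.11. None of the 10 strongest of this set was in any other list. They had narrow widths, between 80 and 333 bp, and 16 to 39 fragments.

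The 10 strongest N642H-only regions, once high-background regions were left out, included loci near cytokine-signalling and survival genes. All 10 were at NR3C1 regions of the N642H line, as were 43.6% of all 195 N642H-only regions without high background. The strongest lay 30007 bp from SOCS1, the JAK inhibitor gene, at chr16:11224224-11224570, with a fold of 18.5. It was in neither untreated STAT5B list and had NR3C1 folds of 34.4 in the WT line and 95.5 in the N642H line. A region 21148 bp from SOCS1 had a fold of 12.6, untreated STAT5B folds of 6.16 and 32.9, and an NR3C1 region in the N642H line only (33.9). The 2 regions near SOCS1 thus differed in both readouts: the first was a receptor region of both lines without untreated STAT5B, the second an untreated STAT5B region of both lines.

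KLF9, a Krüppel-like factor gene and a textbook receptor target, had a fold of 11.3 at 4546 bp from the gene, an untreated N642H fold of 10.1 and NR3C1 folds of 41.1 and 77.6. A region whose nearest gene was HJV, at 10049 bp, lay 10842 bp from TXNIP, the thioredoxin-interacting protein gene. It had a fold of 10.1 and NR3C1 folds of 9.28 and 92.1. The region inside OTUD5 and 18180 bp from PIM2, a survival kinase gene, had 12.6, an untreated N642H fold of 27.3 and an N642H NR3C1 fold of 10.5, and it was in no WT list. DPP4, the CD26 peptidase gene, and ACTR3, an actin-nucleating subunit gene, had folds of 10.2 and 10.5 at positions with no region in any WT list. ACTR3 did have a separate WT region with prednisolone, at 6.44, 12901 bp away by summits.

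BCL2L1 was linked in both lines through different regions. The N642H-only region at chr20:31675949-31676087, inside the gene, had a fold of 12.9. It was at 17.1 in untreated N642H STAT5B and at 41.7 in N642H NR3C1, and no WT library listed it. The WT-only region at chr20:31708450-31708544, 32524 bp away by summits, had a fold of 7.07 and a WT NR3C1 fold of 7.27, with no untreated WT region. At that position the N642H line had untreated STAT5B at 13.2 and NR3C1 at 5.52, and no STAT5B region with prednisolone. The gene thus had 1 region a line with drug, and the WT one rested on 13 fragments against 19 for the N642H one. No STAT5B region with prednisolone lay within 20 kb of BCL2, MCL1 or BCL2L11 in either line, although the N642H line had NR3C1 regions at all 3, at folds of 18.4, 7.22 and 26.4. The WT line also had an NR3C1 region at BCL2L11, at a fold of 10.5, and none within 20 kb of BCL2 or MCL1.

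Genes were called linked to a region if they contained its summit or were no more than 20 kb from it. Of 19970 protein-coding genes, 1219 (6.1%) were linked in the WT line, 604 (3.02%) in the N642H line and 343 (1.72%) in both. WT-only links covered 876 genes (4.39%) and N642H-only links 261 (1.31%). The 343 genes were 28.1% of the WT-linked and 56.8% of the N642H-linked genes, and 46 of them were linked through different regions. One region can link several neighbouring genes, so linked genes are not independent.

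Of 30 textbook STAT5 targets, 4 were linked in the WT line, 8 in the N642H line and 3 in both. These were 13.3% and 26.7% of the list in the WT and the N642H line, and the linked shares over all genes were 6.1% and 3.02%, or 1.72% in both. The 5 linked in the N642H line only were CISH (fold 7.91), SOCS2 (6.66), PIM1 (4.69), PIM2 (12.6) and BCL6 (7.30), the last a transcriptional repressor gene. The PIM1 region lay 7889 bp from the gene, where the untreated N642H list stood at 25.8 and the untreated WT list held nothing. At another position, close to the gene, the untreated lists stood at 5.18 in the WT and 6.58 in the N642H line. BCL6 stood at 4.14 and 18.7 in the untreated lists, and CISH, SOCS2 and PIM2 were in that of the N642H line alone, at 12.7, 9.61 and 27.3. The WT prednisolone list held a region at none of these 5. MYC was linked in the WT line only, with a fold of 5.43 at the gene, and it stood at 4.94 and 6.99 in the untreated WT and N642H lists. CCND3, a D-type cyclin gene, was shared at 8.25 and 7.86, and STAT3 at 7.41 and 7.07. At the shared CCND3 region the untreated STAT5B folds were 6.64 in the WT and 9.87 in the N642H line. The NR3C1 folds there were 39.8 and 92.1. No STAT5B region with prednisolone lay within 20 kb of SOCS1, SOCS3, CCND2 or IL2RA in either line. The N642H-only regions near SOCS1, at 21148 and 30007 bp, lay beyond the link distance, so SOCS1 was not counted as linked.

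Of 30 glucocorticoid-response genes, 8 were linked in each line and 3 in both, which is 26.7% in each against 6.1% and 3.02% of all genes. FKBP5, KLF13 and CXCR4, a chemokine receptor gene with folds of 9.46 and 9.17, were the 3 in common. At the CXCR4 region NR3C1 folds were 45.4 in the WT and 81.5 in the N642H line. DUSP1, a MAP kinase phosphatase gene, was WT-only at 4.28. BTG2 was WT-only at 10.6, ZBTB16 at 8.08, SMAP2 at 6.997 and ZFP36 at 5.84. PER1, a circadian repressor gene, was N642H-only at 6.18, DDIT4, an mTOR inhibitor gene, at 6.47, and IL7R, the interleukin-7 receptor gene, at 6.76. At the IL7R region NR3C1 folds were 14.9 in the WT and 53.8 in the N642H line. Both lines also had STAT5B about 95 kb from IL7R, at 7.69 and 8.96, beyond the link distance. TSC22D3 had no linked region, but a shared one lay about 39 kb away at 7.78 and 8.69, and ZFP36L2 had a shared one about 91 kb away at 8.82 and 8.96. In each line 5 of the 8 linked genes were linked in that line only. Over all genes, 876 of the 1219 linked genes were so in the WT line and 261 of the 604 in the N642H line. Members of this list past the 6 strongest are named after their values were seen.

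T-lineage regulators were linked at 6 of 20 genes in the WT line (30%) and 4 in the N642H line (20%), all 4 in common, against 6.1%, 3.02% and 1.72% of all genes. IKZF1, the Ikaros gene, stood at 8.79 and 8.61, NOTCH3 at 8.56 and 7.675, TCF3 at 5.77 and 9.83, and ZBTB7B at the values given above. At the shared IKZF1 region NR3C1 folds were 34.0 in the WT and 92.5 in the N642H line. IKZF3 and TOX were WT-only at 7.14 and 5.59. Of 20 genes of the IL7R and JAK-STAT pathway, 3 were linked in the WT line (15%) and 4 in the N642H line (20%), among them STAT3 in both and IL7R in the N642H line only. Of 20 BCL2-family genes, 2 were linked in each line (10%), BCL2L1 in both, BMF in the WT line (6.02) and BCL2L15 in the N642H line (6.39).

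The remaining lists had few linked members. Of 16 cell-cycle genes, 3 were linked in the WT line (18.8%) and 1 in the N642H line (6.25%), against 6.1% and 3.02% of all genes, and of 24 highly expressed housekeeping genes 3 in each (12.5%), with RPS7 and UBB shared. Of 16 markers of other blood cell types, none was linked in the WT line and 1, CD79A (6.57), in the N642H line. Of 16 markers of non-blood tissues, none was linked in either. Binding does not measure expression, so these counts do not check the identity of the cells.

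**Figure D5:**
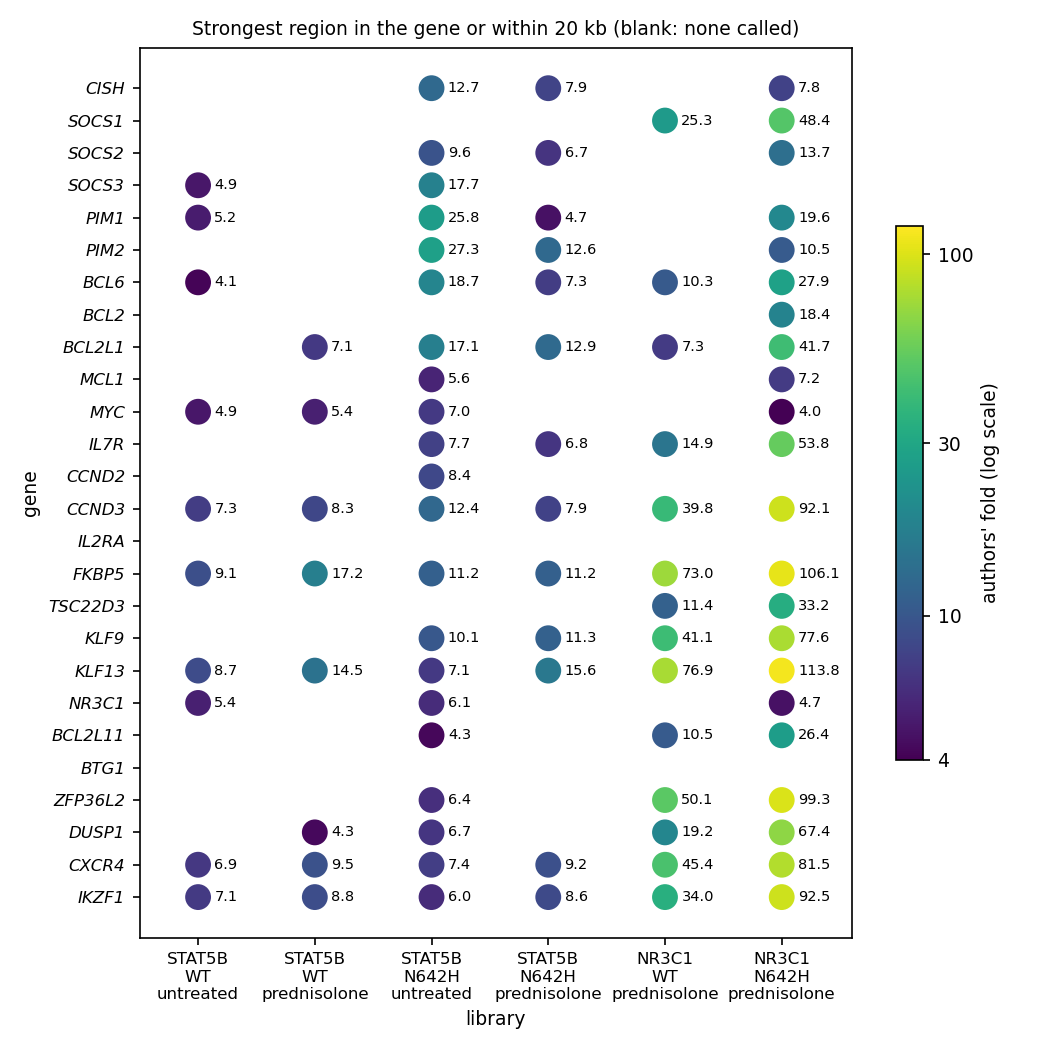
The authors' fold (colour, log scale, with the value beside each point) of the strongest region in each of 26 genes or within 20 kb, by library; a blank means that none was listed. CISH, SOCS2, PIM1, PIM2, BCL6, IL7R and KLF9 have a point in the N642H and none in the WT STAT5B library with prednisolone, while MYC and DUSP1 show the reverse.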

How the data were processed

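The lists came from 8 ChIP libraries of 12 samples; the 4 input samples were not analysed here on their own. BWA, MACS2 and deepTools with build hg38 are named in the submitters' processing notes, and versions are not given in the sources used here. The deposited lists give, per region, a score, a fold ratio of ChIP over local background, −log10 p and −log10 q, called by the authors per library with −log10 q of at least 2. From these, pileup and local background were solved with a pseudocount of 1, and the depth with it. Of 400 simulated peaks made with the same formula 100% were recovered, which checks the solving and not the formula. Their backgrounds stayed below the highest of the N642H list. Overlap of 1 bp or more defined shared regions, with Clopper-Pearson intervals at 95%. Gene spans and promoters were from RefSeq GRCh38.p14 (19970 protein-coding genes, 15811 with a promoter entry, none used here from chromosome 8). Python 3.11.15, numpy 2.4.6, pandas 2.3.3, scipy 1.17.1 and matplotlib 3.10.9 were used. The members and gene lists were chosen with earlier results of these data known. Named genes were the nearest genes of the 10 strongest regions per class, 26 followed genes, up to 6 linked members per gene list and up to 8 promoters; any other is said to have been chosen after its values were seen. Some genes that this rule names are not reported here. Overlap rules, strength minimums, list lengths, gene windows and high-background regions were varied.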

Additional observations from a re-analysis of the deposited data

Results flagged for a closer look

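Regions on sequences other than chromosomes 1 to 22 and X entered none of the comparisons above. The N642H list with prednisolone held 34 of them (7.11% of its 478 regions), with folds from 1.86 to 16.0, of which 27 were high-background regions and 30 lay on unplaced or decoy sequences. The WT list held 7 (0.906% of 773), with folds from 4.58 to 10.8. No control library gives a level for these sequences here.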

How the results depend on the processing

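No paired analysis was possible because each group held 1 library. Counting intervals cover listed regions only, culture-to-culture spread was not measured, and the N642H library was the shallower one by the recovered depth. Of the alternative values of the main results, 187 stayed within their interval or within 1.5 times the count and 51 did not. No direction was tested.
Lists of equal length gave 30.9% shared in the WT and 31.3% in the N642H list, untreated STAT5B of the same line at 61.6% of WT-only regions, of the other line at 76.9% of WT-only and 85.6% of shared N642H regions, NR3C1 of the other line at 33.1% of shared N642H regions, and median folds of 8.41 (WT shared) and 7.92 (WT only).
Without high-background regions 48.3% of N642H regions were shared, and N642H-only regions lay at gene ends in 45.1%, at own NR3C1 in 43.6%, at untreated STAT5B of the same line in 77.4% and of the other in 41.0%, with a median fold of 6.81. A fold of at least 5 gave 47.5%, 44.9%, 43.4%, 77.6%, 42.3% and 6.87 for the same values.
A −log10 q of at least 5 gave NR3C1 of the same line at 36.9% of shared WT, 64.9% of shared N642H and 64.9% of N642H-only regions, NR3C1 of the other line at 64.0% of shared WT and 36.9% of shared N642H regions, untreated STAT5B of the same and the other line at 62.8% and 78.6% of WT-only regions, and median folds of 8.37 (WT shared), 7.73 (WT only), 7.91 (N642H shared) and 7.19 (N642H only). It left 797, 378 and 183 genes linked in the WT line, the N642H line and both.
Untreated STAT5B of the same line was at 57.5% of WT-only regions with summits within 250 bp, 60.3% with regions within 500 bp and 46.7% with 50% of either region covered, and that of the other line at 76.1% with regions within 500 bp. With untreated lists of equal length, an alternative chosen after seeing the data, the same line gave 78.7% of shared and 48.7% of N642H-only regions, and the other line 79.1% of shared and 53.8% of WT-only regions.
Gene ends within 500 bp and 2500 bp held 51.7% and 61.5% of WT-only regions. At 5 times the genome background the WT list held 26 high-background regions. Linked genes numbered 343, 171 and 67 (WT, N642H, both) inside genes only, and 1925, 969 and 564 within 50 kb. Of the gene-list counts, 54 stayed within 1.5 times and 18 did not. The cause of these changes was not tested.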

Other observations

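Away from the lists above, some genes linked in both lines had regions that met at the same gene end without overlapping. At the shared start of HSPD1 and HSPE1, the mitochondrial chaperonin pair, WT and N642H summits lay 62 bp apart with folds of 7.50 and 6.55. At CDC25C, a cell-cycle phosphatase gene, they lay 250 bp apart with folds of 9.06 and 5.05, and at CLPB, a mitochondrial disaggregase gene, 440 bp apart with folds of 6.44 and 9.73. These genes were chosen after their values were seen. Within 1 kb of a region of the other list lay 23 WT-only regions (3.94%) and 12 N642H-only regions (4.598%, or 6.15% of the 195 without high-background ones).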
